A study of Mus musculus with 14 samples.

Results

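Twist1, Twist2, Snai1, Snai2, Zeb1, Zeb2, Msx1 and Msx2 encode transcription factors known from the conversion of epithelial cells to mesenchymal ones and from the neural crest. The 8 genes were chosen by name, with earlier results of these data known, from 21887 protein-coding genes with a position. The data on them were the peaks of open chromatin that overlapped a gene body or lay within 50 kb of it, in any of 14 ATAC-seq peak lists (mm10 coordinates, RefSeq gene positions). Overlapping peaks of the 14 lists were joined into regions, and 76 of 127850 regions lay in the windows of these genes.

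Twist1 and Twist2 are basic helix-loop-helix proteins, which bind CANNTG elements (E-boxes) as dimers. Snai1 and Snai2 are zinc finger repressors, and Zeb1 and Zeb2 are repressors with zinc fingers and a homeodomain. The Snail and Zeb proteins are known for binding E-boxes, CAGGTG above all, and for silencing the epithelial cadherin gene Cdh1. Msx1 and Msx2 are homeodomain repressors that are induced by bone morphogenetic proteins (BMP) in the neural crest and at the border of the neural plate, and transforming growth factor beta (TGF-beta) is a known inducer of the Snail, Twist and Zeb genes.

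ATAC-seq finds open chromatin from the places where the Tn5 transposase inserts adapters into DNA. The lists came from 7 groups of 2 libraries of cultured mouse neural stem cells (brain, medium with EGF and FGF), with a single list for each library. ZR cells carried the ZFTA-RELA fusion, a driver of supratentorial ependymoma that joins a zinc finger protein to the NF-kB subunit RELA, and their label names PBS as vehicle. EV cells carried an empty vector, with DMSO as the vehicle label of replicate 1 and PBS as that of replicate 2. ZR_GSK343 cells carried the fusion and received 10 µM GSK343, which blocks EZH2, the Polycomb enzyme that methylates histone H3, for 96 h. ZR_dmCitra cells carried the fusion and received 10 mM citraconate, named in the study as an antagonist of ACOD1, the enzyme that makes itaconate. The protocol names 24 and 48 h for citraconate without assigning either time to a library. ZR_DMSO cells were fusion cells whose titles name DMSO and whose treatment label names PBS. Citraconate_50K cells carry a fusion label and 10 mM citraconate, whereas DMSO_50K cells carry an empty-vector label, so treatment and cell line cannot be told apart between these groups. No label says whether the fusion line was a clone or whether replicates were separate cultures, so differences between replicates may be technical.

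The lists held 12554 to 60472 peaks. They hold no read counts, and sequencing depth cannot be read from them. Peaks were shortest in ZR_DMSO, where the median was 226 bp in replicate 1 and 186 bp in replicate 2, against 260 and 330 bp in the ZR_GSK343 libraries and 419 to 533 bp in the other 10 lists. The label "neural stem cell" was set against peaks within 1 kb of a gene end (gene-end peaks) of 8 neural stem markers. Both EV lists had such a peak at 6 of 8, Sox2, Sox1 and Nes among them. The 12 other lists had 0 to 4 of 8, none of them at Sox2 or Sox1. DMSO_50K, although labelled empty vector, was among these with 2 of 8 in each list. Of 5 markers each, the lists had a gene-end peak at 0 to 2 microglial, 0 to 2 fibroblast and 0 or 1 endothelial genes. Aif1, Cx3cr1, Csf1r, Lum, Col1a2, Pdgfra, Pecam1, Tek and Cldn5 had none in any list. The microglial marker Tmem119 had one in all lists except EV replicate 2 and ZR_DMSO replicate 1. The fibroblast marker Col1a1 had one in all lists except those of ZR_DMSO. P2ry12, Dcn, Cdh5 and Kdr had one in some lists.

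Promoter sequences are shown because peaks over them set the genes apart: they covered the Twist2, Snai1 and Zeb2 starts in some groups only, the Msx1 start in nearly all lists, and the Twist1 and Msx2 starts in none. Each is the 250 bases before a RefSeq start (GRCm38.p6, the same coordinates as mm10), given 5′ to 3′ on the strand of the gene. Capitals mark CANNTG and TGANTCA, the element of AP-1 factors. RefSeq promoter entries were matched for 6 of the 8 genes, and 4 entries for Zeb2, of which the third overlaps the second and is not shown.
Twist1, chr12:33957421-33957670, plus strand: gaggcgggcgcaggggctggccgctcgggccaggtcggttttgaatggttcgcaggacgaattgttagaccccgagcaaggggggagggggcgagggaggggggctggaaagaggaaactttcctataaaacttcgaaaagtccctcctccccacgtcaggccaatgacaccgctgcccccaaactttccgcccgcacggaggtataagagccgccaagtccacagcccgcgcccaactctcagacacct
Msx2, chr13:53472781-53473030, minus strand: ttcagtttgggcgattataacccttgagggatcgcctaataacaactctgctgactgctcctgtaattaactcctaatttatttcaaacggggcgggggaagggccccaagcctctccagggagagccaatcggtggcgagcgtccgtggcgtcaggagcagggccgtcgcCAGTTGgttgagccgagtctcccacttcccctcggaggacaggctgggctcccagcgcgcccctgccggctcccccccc
Msx1, chr5:37824586-37824835, minus strand: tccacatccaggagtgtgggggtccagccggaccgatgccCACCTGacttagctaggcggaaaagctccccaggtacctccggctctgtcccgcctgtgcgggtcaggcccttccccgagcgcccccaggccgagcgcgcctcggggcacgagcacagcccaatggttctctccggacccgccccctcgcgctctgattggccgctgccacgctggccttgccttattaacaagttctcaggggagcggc
Twist2, chr1:91801211-91801460, plus strand: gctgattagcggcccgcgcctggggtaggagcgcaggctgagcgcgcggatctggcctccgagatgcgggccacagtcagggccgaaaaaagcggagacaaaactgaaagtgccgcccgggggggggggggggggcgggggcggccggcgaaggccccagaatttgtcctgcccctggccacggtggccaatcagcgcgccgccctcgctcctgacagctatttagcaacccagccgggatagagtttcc
Snai1, chr2:167537945-167538194, plus strand: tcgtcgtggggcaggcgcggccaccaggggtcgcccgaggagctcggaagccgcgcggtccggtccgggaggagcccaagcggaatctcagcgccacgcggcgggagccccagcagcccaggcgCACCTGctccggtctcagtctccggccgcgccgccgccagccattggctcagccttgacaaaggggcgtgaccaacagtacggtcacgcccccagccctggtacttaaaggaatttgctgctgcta
Zeb2 outer start, chr2:45117443-45117692, minus strand: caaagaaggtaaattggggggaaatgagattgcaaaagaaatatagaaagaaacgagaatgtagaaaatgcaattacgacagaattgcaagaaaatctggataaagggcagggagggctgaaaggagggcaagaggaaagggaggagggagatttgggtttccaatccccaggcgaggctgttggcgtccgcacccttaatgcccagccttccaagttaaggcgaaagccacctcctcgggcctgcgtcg
Zeb2 second start, chr2:45113280-45113529, minus strand: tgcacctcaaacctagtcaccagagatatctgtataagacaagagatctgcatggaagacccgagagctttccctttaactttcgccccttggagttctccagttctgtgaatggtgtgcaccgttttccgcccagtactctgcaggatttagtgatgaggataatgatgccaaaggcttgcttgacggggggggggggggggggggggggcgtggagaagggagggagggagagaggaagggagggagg
Zeb2 inner start, chr2:45110278-45110527, minus strand: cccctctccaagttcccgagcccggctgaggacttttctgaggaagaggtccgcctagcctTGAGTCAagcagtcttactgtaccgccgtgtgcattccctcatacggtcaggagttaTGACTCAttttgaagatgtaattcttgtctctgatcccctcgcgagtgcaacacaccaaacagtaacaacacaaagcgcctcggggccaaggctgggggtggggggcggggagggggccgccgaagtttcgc

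The promoters with and without peaks did not separate by base content. The number of CpG pairs in the 250 bases was 18 for Twist1 and 16 for Msx2, which had no peak over them, 20 for Msx1, 23 for Twist2 and 27 for Snai1, against a median of 6 over 32851 promoter entries. The outer Zeb2 start had 9 CpG pairs, the second 6 and the inner 14. Motifs were searched on both strands. CANNTG was found in 66.2% of all promoter entries and CAGGTG, which is one form of it, in 17.2%. Among the sequences shown, CAGGTG occurred at Snai1 and Msx1, 1 match each (as its reverse complement on the strand printed), and a CANNTG of other letters occurred at Msx2. The AP-1 element TGANTCA was in 6.75% of entries and had 2 matches at the inner Zeb2 start. TAATTG, a homeodomain element, was in 7.17% and had 1 match, at the outer Zeb2 start. A match is a stretch of letters only, and binding was not measured.

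Most of the 76 regions were found in few lists. A peak was present in 1 list only for 34 regions, in 2 to 11 lists for 29 and in 12 or more for 13. ZR_GSK343 accounted for 19 of the regions seen in 1 list, 13 of them in replicate 2 and 6 in replicate 1. Of the 76 regions, 49 lay between genes, 17 inside the body of a member, 7 at a gene end of a member, 2 inside another gene and 1 at the ends of other genes. Zeb2 had 21 regions in a window of 233.9 kb, Snai1 14 in 104.6 kb, Twist2 10 in 146.6 kb, Msx1 10 in 104.1 kb, Msx2 9 in 105.9 kb and Zeb1 8 in 284.1 kb. Twist1 and Snai2 had 2 each, in 102.2 and 103.5 kb. Regions at Twist1 came from ZR_GSK343 replicate 1 alone.

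**Figure D1:**
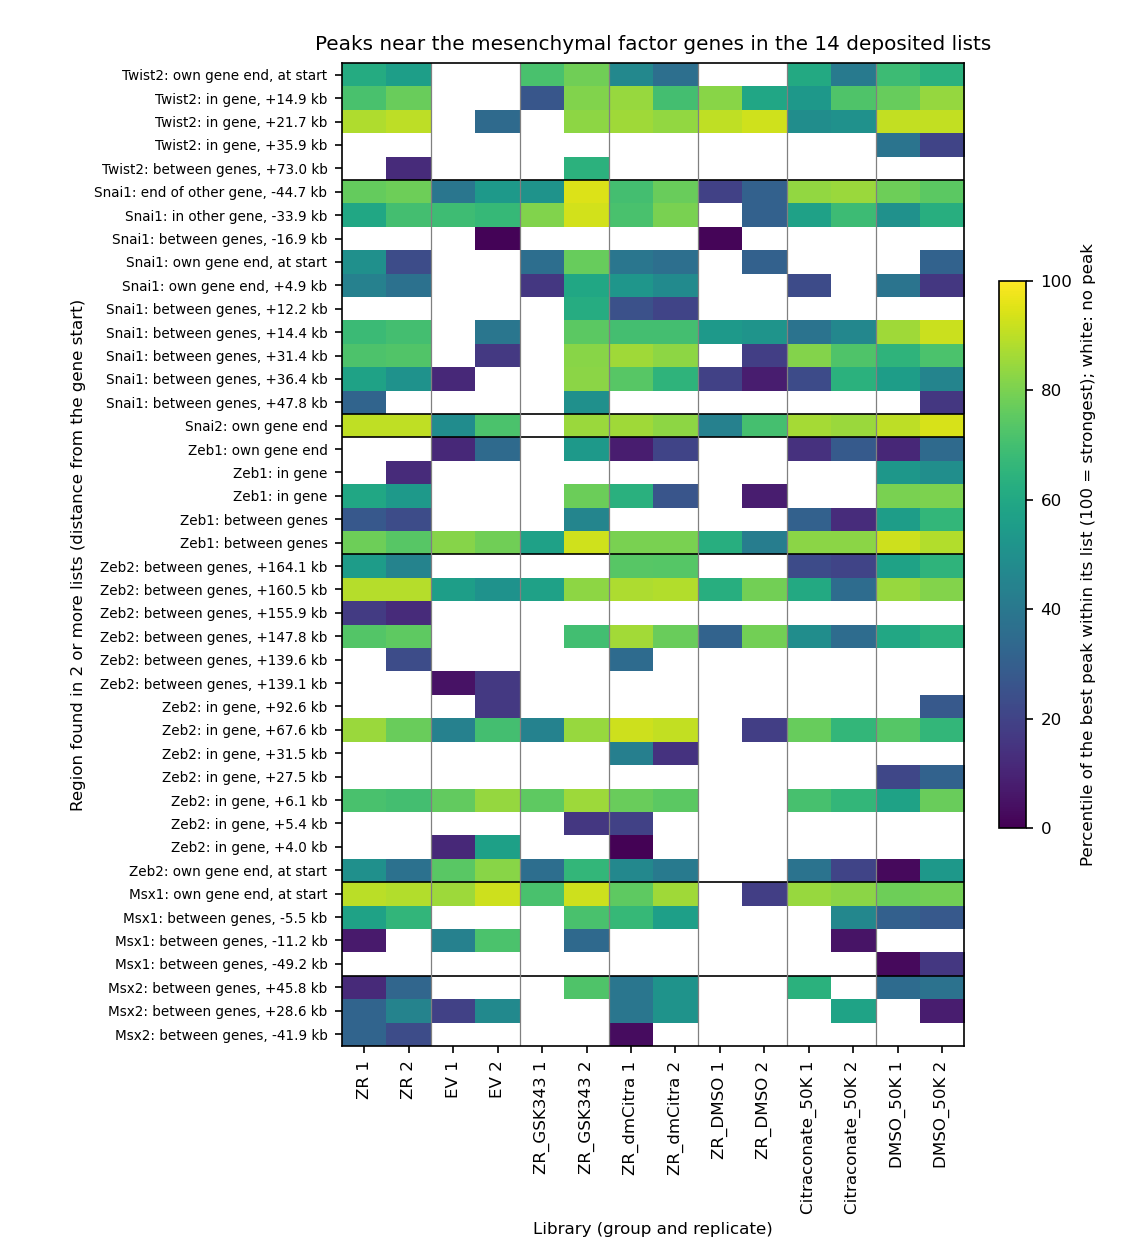
Each row is a region found in 2 or more of the 14 lists, named by its gene and its distance from the gene start (no distance for Snai2 and Zeb1), and each column is a library. Colour gives the percentile of the best peak within its list by −log10 q (100 is the strongest peak of the list, white is no peak); the Twist2 rows at the start and at +14.9 kb are white in both EV columns, while the Snai2 row is filled in 13 columns.

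A group of 3 regions had a peak in all 14 lists. They lay beyond the higher-coordinate end of Zeb1 (chr18:5818941-5821078), downstream of Zeb2 (chr2:44956124-44956904, 160.5 kb from the outer start) and upstream of Snai1 (chr2:167491021-167493468, 44.7 kb from the start and at the ends of the neighbouring genes Spata2 and Rnf114). Each is described by the percentile of its best peak within the list by −log10 q, where 100 is the strongest peak, with the values of replicates 1 and 2 in that order. The Zeb2 region ranked higher in ZR, at the 88.8 and 88.9 percentile of the 2 lists, than in EV, at 56.1 and 50.9. The Snai1 region stood at 76.3 and 77.9 in ZR and at 39.1 and 54.0 in EV. The Zeb1 region ranked slightly lower in both ZR lists, at 78.1 and 73.9, than in EV, at 81.8 and 78.2, and its peaks were narrower in ZR, at 907 and 976 bp against 1610 and 1646 bp in EV. Percentiles describe a place within a list, and lists of different lengths give different percentiles, so differences between groups with unequal lists show no change by themselves.

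Twist2, which is expressed in mesenchyme and dermis, had open chromatin at its start in all groups except EV and ZR_DMSO. The gene lies at chr1:91801461-91848034, and the start region (chr1:91800707-91802033) covers the promoter printed above. Its peak stood at the 61.6 and 56.2 percentile in ZR, with widths of 960 and 701 bp, and no peak was listed in either EV library. It stood at 71.4 and 78.3 in ZR_GSK343 and at 46.5 and 36.4 in ZR_dmCitra, and was listed in neither ZR_DMSO library. Citraconate_50K had it at 60.8 and 41.0, and DMSO_50K at 68.4 and 63.9. The empty-vector label therefore went with no peak in EV and with a peak in DMSO_50K.

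Inside the Twist2 gene a region 14.9 kb from the start (chr1:91816377-91817251) was also without a peak in both EV lists. It stood at 71.1 and 77.0 in ZR, 26.7 and 81.0 in ZR_GSK343, 84.5 and 70.0 in ZR_dmCitra, 82.1 and 59.0 in ZR_DMSO, 53.5 and 72.6 in Citraconate_50K and 76.9 and 84.0 in DMSO_50K. A further region 21.7 kb from the start (chr1:91823201-91824138) was among the stronger peaks of the ZR lists, at 88.1 and 90.0, and was listed in EV replicate 2 alone, at 34.5. ZR_DMSO kept it at 90.4 and 92.9, where ZR_dmCitra had 85.6 and 83.6 and ZR_GSK343 had it in replicate 2 alone, at 83.1. ZR_DMSO thus listed both inner Twist2 regions without the start. In Citraconate_50K the region stood at 49.0 and 50.5, against 90.9 and 90.7 in DMSO_50K, and the groups did not overlap.

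**Figure D2:**
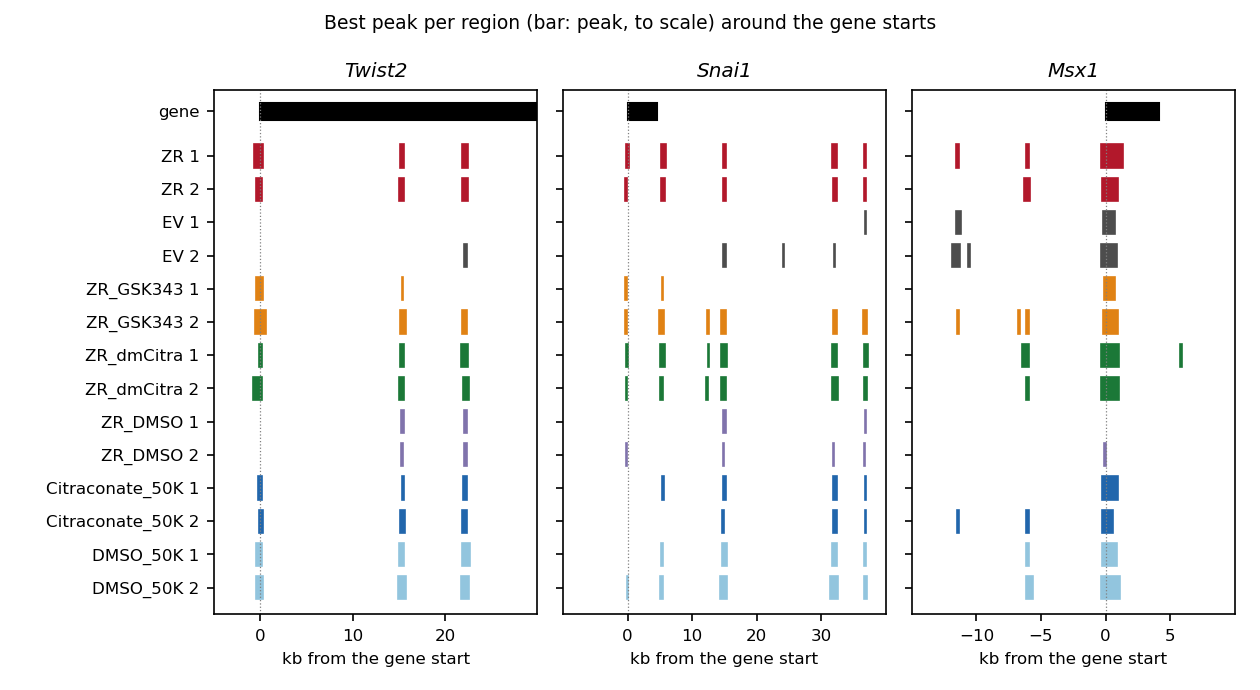
Peaks around the starts of Twist2, Snai1 and Msx1, in kb from the gene start along the direction of transcription, with 1 row per library and each bar drawn to scale as the best peak of a region. The black bar is the gene (Twist2 runs beyond the right edge); EV rows have no bar at the Twist2 start or at the Snai1 start, and the Msx1 start has a bar in all rows except ZR_DMSO 1.

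Snai1 (chr2:167538195-167542814) had 2 regions at its own ends and a row of regions downstream. The start region (chr2:167537726-167538393) stood at 50.2 and 23.2 in ZR, with widths of 447 and 419 bp, and was listed in neither EV library. It stood at 36.3 and 76.7 in ZR_GSK343 and 39.1 and 36.4 in ZR_dmCitra, against 30.9 in ZR_DMSO replicate 2 and no peak in replicate 1. It was listed in DMSO_50K replicate 2 alone of the 50K libraries, at 31.4. The region past the 3′ end (chr2:167543104-167544154, 4.9 kb from the start) stood at 44.0 and 37.2 in ZR and was again in neither EV list. ZR_GSK343 had it at 16.2 and 59.5 and ZR_dmCitra at 52.5 and 48.0, and neither ZR_DMSO list held it. Citraconate_50K had it in replicate 1 at 22.9, against 38.5 and 16.3 in DMSO_50K.

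The Snai1 flank held open regions that were listed in more libraries than the gene itself. The region 14.4 kb past the start (chr2:167552562-167553620) stood at 68.3 and 70.3 in ZR and in EV replicate 2 at 39.4. The region 31.4 kb past the start (chr2:167569603-167570768) stood at 72.2 and 72.8 in ZR and in EV replicate 2 at 16.5. Its level was 85.6 and 82.9 in ZR_dmCitra, against 18.7 in ZR_DMSO replicate 2 and no peak in replicate 1. A region 33.9 kb before the start and inside another gene (chr2:167502944-167504274) was listed in 13 libraries, at 59.6 and 70.3 in ZR and 69.0 and 67.1 in EV. ZR and EV overlapped there.

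Snai2, also called Slug and a marker of migrating neural crest, had 1 widely listed region, and its other region was in 1 list. It covers the gene end at the lower coordinate (chr16:14705104-14706403; the gene is chr16:14705852-14709395) and was listed in all libraries except ZR_GSK343 replicate 1. It stood at 90.4 and 90.3 in ZR (90.4 ± 0.0897, SD, n = 2), against 48.5 and 71.5 in EV (60.0 ± 16.3, SD, n = 2). The ZR peaks were 985 and 1029 bp wide, and the EV peaks 550 and 822 bp. ZR_dmCitra had 85.6 and 82.9 and ZR_GSK343 replicate 2 had 84.9, against 43.9 and 70.7 in ZR_DMSO. Citraconate_50K had 86.6 and 84.8 and DMSO_50K, with longer lists, 90.2 and 94.0. By rank (1 is the strongest peak) these groups overlapped, at 4369 and 4537 against 5253 and 3640. Of the lists that held it, the EV and ZR_DMSO ones had the lowest percentiles. The ZR_DMSO lists were the shorter ones, and by rank their peaks stood at 6481 and 6346. ZR_dmCitra peaks ranked 6625 and 7375, that of ZR_GSK343 replicate 2 ranked 8706, and EV peaks ranked 17822 and 12378.

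Zeb1 (chr18:5591327-5775468) had the least often listed gene-end peak of the 6 members with one, in 7 of 14 lists. A region over its lower-coordinate end (chr18:5591203-5593535) had peaks in 9 lists and in neither ZR list. Its best peak in EV stood at 11.6 and 34.5, and of the EV lists that of replicate 2 alone had a peak within 1 kb of the gene end. Citraconate_50K had its best gene-end peak at 14.3 and 20.7, against 11.2 and 34.6 in DMSO_50K. A region within the gene (chr18:5739980-5740963) ran the other way and stood at 59.6 and 53.7 in ZR with no peak in EV. It was listed in DMSO_50K at 79.8 and 80.1 and in neither Citraconate_50K library.

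Zeb2 (chr2:44983512-45117442) had a start that ranked lower in ZR than in EV. The region at its outer start (chr2:45116309-45117578) stood at 50.2 and 37.2 in ZR (43.7 ± 9.20, SD, n = 2), against 74.3 and 82.2 in EV (78.2 ± 5.58, SD, n = 2). Peak widths were 750 and 453 bp in ZR and 558 and 1230 bp in EV. It stood at 36.3 and 66.3 in ZR_GSK343 and 46.5 and 40.7 in ZR_dmCitra, and was in neither ZR_DMSO list. Citraconate_50K had 37.9 and 20.7, against 2.52 and 53.4 in DMSO_50K, and these overlapped. The second start lay in a region (chr2:45112922-45113408) that both EV lists held, at 11.6 and 56.8, and neither ZR list. Peaks over the printed sequence of the second start came from the 2 EV libraries alone.

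The inner Zeb2 start, with its 2 TGANTCA matches, lay in a broad region (chr2:45108509-45111343) that 12 lists held. It stood at 71.1 and 70.3 in ZR and 75.8 and 84.2 in EV. ZR_GSK343 had 75.0 and 85.3 and ZR_dmCitra 77.1 and 74.9, and neither ZR_DMSO list held it. A region inside the gene, 67.6 kb from the outer start (chr2:45048526-45049831), stood at 84.9 and 77.0 in ZR and 44.1 and 70.1 in EV. It stood at 92.4 and 90.7 in ZR_dmCitra and 44.3 and 84.5 in ZR_GSK343, against 18.7 in ZR_DMSO replicate 2 and no peak in replicate 1. Downstream, regions at 164.1 kb (chr2:44952626-44953325) and 147.8 kb (chr2:44969122-44969633) from the outer start were listed in both ZR libraries, at 55.3 and 44.7 and at 73.4 and 75.0, and in neither EV library. A further downstream region, at 139.1 kb (chr2:44978087-44978368), went the other way and was listed in both EV libraries, at 4.85 and 16.5, and in neither ZR library.

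Msx1 (chr5:37820491-37824585) had a strong and wide start peak in nearly every list. The region (chr5:37823271-37824965) stood at 89.5 and 88.5 in ZR and 85.5 and 92.4 in EV, which overlapped, with widths of 1695 and 1252 bp in ZR and 881 and 1224 bp in EV. ZR_GSK343 had 71.4 and 92.2 and ZR_dmCitra 75.1 and 85.9, against 18.7 in ZR_DMSO replicate 2, where the peak was 108 bp wide, and no peak in replicate 1. Citraconate_50K had 84.7 and 82.7, above DMSO_50K with 77.9 and 78.8. Upstream of the start the groups differed in both directions. A region 5.5 kb upstream (chr5:37830041-37831070) stood at 57.6 and 65.8 in ZR and was in neither EV list. A region 11.2 kb upstream (chr5:37835754-37836461) stood at 44.1 and 71.5 in EV, and was listed in ZR replicate 1 alone, at 7.08.

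Msx2 (chr13:53466881-53472780) and Twist1 (chr12:33957671-33959831) had no gene-end peak in any of the 14 lists. Msx2 had peaks only at a distance. The region 45.8 kb past its start (chr13:53426359-53426932) was listed in ZR at 12 and 32.9 and in neither EV library, and the region 28.6 kb past the start (chr13:53443711-53444186) stood at 32.3 and 44.7 in ZR and 19.2 and 47.5 in EV. A region 41.9 kb upstream (chr13:53514670-53514892) stood at 32.3 and 23.2 in ZR and was in neither EV list.

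**Figure D3:**
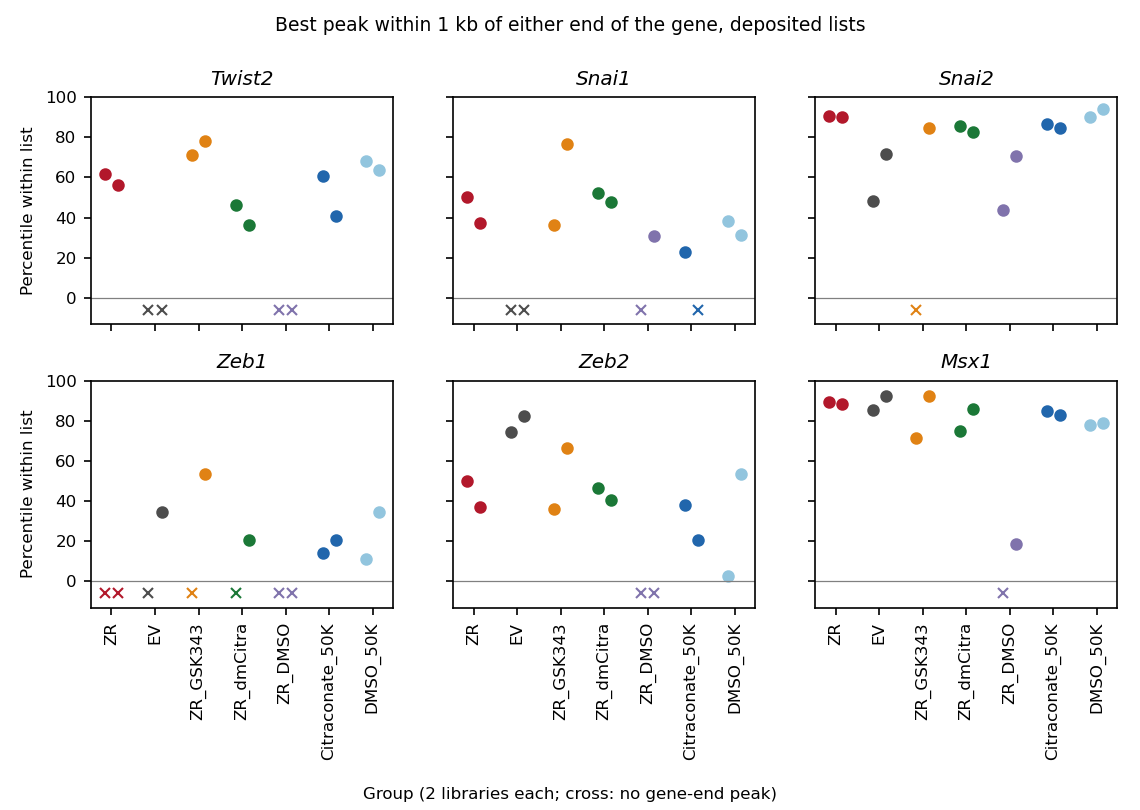
Percentile within the list of the best peak within 1 kb of either gene end, for the 6 members that had such a peak in any list, by group, with a point for each library and a cross where the list has none. Twist2 and Snai1 have crosses for both EV libraries, Snai2 is near 90 in ZR, and Zeb2 is higher in EV than in ZR.

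Fusion cells were first compared with empty-vector cells. Lists were reduced to the same length, 34989 peaks, by −log10 q, and a region counted as gained when both ZR lists and neither EV list held a peak, and as lost in the opposite case. Of 31 member regions with a peak, 10 were gained (32.3%, against 22.0% of all 58737 regions) and 3 were lost (9.68%, against 19.6%), while 10 were in all 4 lists and 8 were mixed. The gained regions were the Twist2 start and the region 14.9 kb into Twist2, the Snai1 start, its 3′ end and the region 31.4 kb past it, the inner Zeb1 region, the Zeb2 regions at 147.8 and 164.1 kb, the Msx1 region 5.5 kb upstream and the Msx2 region 41.9 kb upstream. The lost regions were the one over the Zeb1 end, the second Zeb2 start and the Msx1 region 11.2 kb upstream. In the Zeb1 region EV replicate 1 had no peak within 1 kb of the gene end, so it is not a lost gene-end peak. Of these 13 regions, 11 had no peak in either deposited list of the group without it, and the exceptions were the Snai1 region at 31.4 kb and the Msx1 region at 11.2 kb, with 1 list each. Neighbouring regions of 1 gene are not independent of each other. Both deposited DMSO_50K lists, also labelled empty vector, held all gained regions except the Snai1 start and the Msx2 region. Replicate 2 alone held the Snai1 start, and neither held the Msx2 region. Of the lost regions both held the one over the Zeb1 end and neither held the others.

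At the gene ends, 2 of 6 members with a peak gained it in ZR, Twist2 and Snai1, and 0 lost it. Over all 11931 protein-coding genes with a gene-end peak, 3.08% gained and 6.94% lost it. The share of each equal-length list that lay near the 8 genes was 0.0772% and 0.0715% in ZR and 0.0514% in each EV list, and the groups did not overlap. The mean difference was 0.0229 ± 0.00404 percentage points (SD, n = 2 each; exact permutation test, two-sided, p = 0.33), against 0.0137 with the lists at full length and 0.01 with windows of 20 kb. The 3 regions of all lists averaged 80.7 ± 0.585 in ZR and 60.0 ± 1.44 in EV (percentile, SD, n = 2 each; exact permutation test, two-sided, p = 0.33). With 2 libraries against 2 the smallest p such a test can give is 0.33, so no single value could pass 0.05.

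**Figure D4:**
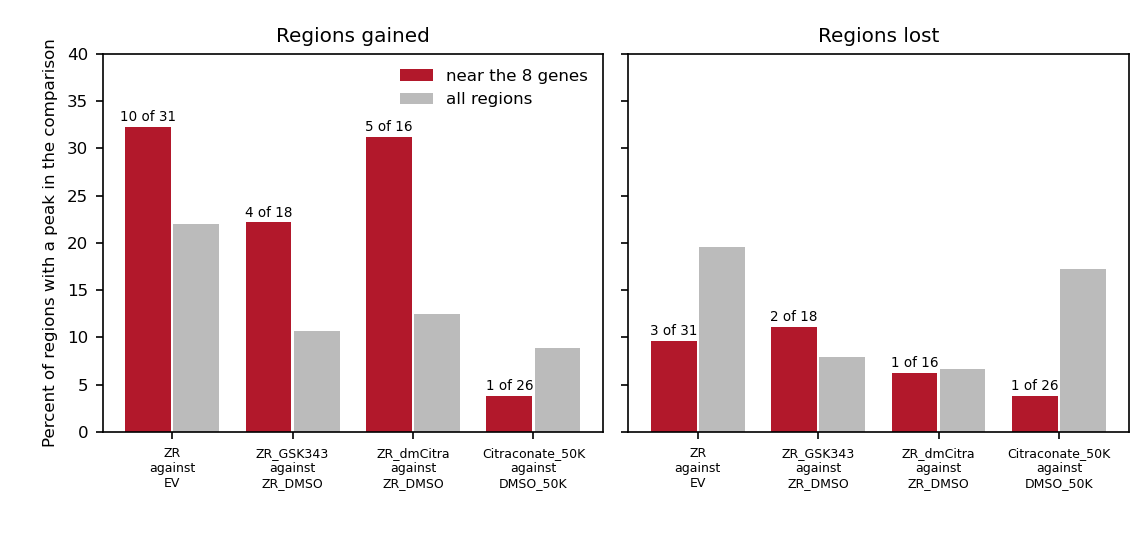
Percent of regions gained (left) and lost (right) at equal list length in each of the 4 comparisons, for regions near the 8 genes (red, with counts) and for all regions (grey). Near the 8 genes, 10 of 31 regions were gained and 3 of 31 lost in ZR against EV, and 1 of 26 each in Citraconate_50K against DMSO_50K.

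Genes of the surrounding pathways were counted at their ends in the same comparison. Over all 11931 genes with a peak, 3.08% gained and 6.94% lost one. Bmp2, a BMP ligand, gained a gene-end peak (40.5 and 65.8 in ZR). It was 1 of 4 TGF-beta and BMP ligands with a peak, of 8 listed, and 0 were lost. Receptors of both pathways had a peak for 7 of 8 genes, with 0 gained and 0 lost. Of 12 mediators and inhibitors 10 had a peak, 0 were gained and Smad9, which carries BMP signals, was lost (52.5 and 54.0 in EV). Among 19 related factors 7 had a peak, 0 were gained and 2 were lost. The lost ones were Scrt1, a neural relative of the Snail genes, and Tcf12, a helix-loop-helix partner of Twist proteins. Scrt1 stood at 56.1 and 68.6 in EV and Tcf12 at 56.1 and 61.4, although 1 deposited ZR list held a peak for Scrt1 and 2 for Tcf12.

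No gene of the mesenchymal list was gained. Of 23 mesenchymal genes 12 had a peak, and Sparc and Tagln, which encode a matrix protein and an actin-binding protein, were lost (26.6 and 43.7 for Sparc and 26.6 and 34.5 for Tagln in EV). Of 19 epithelial genes and factors 3 had a peak, 0 were gained and Cldn1, a tight junction gene, was lost (44.1 and 39.4 in EV). Cdh1 had no gene-end peak in any of the 14 lists. Among 13 neural crest factors 5 had a peak, Sox8 was lost (44.1 and 59.2 in EV) and 0 were gained. Both deposited ZR lists held a Sox8 peak. The cell type markers changed as well, against 6.94% lost over all genes. Of 8 neural stem markers 6 had a peak and 5 were lost. These were led by Sox2 (95.4 and 93.6 in EV), Sox1 (85.5 and 89.8 in EV) and Hes5 (56.1 and 56.8 in EV). Both deposited ZR lists held a Hes5 peak. Of 5 microglial markers 2 had a peak and P2ry12 was lost (56.1 and 54.0 in EV). Of 5 endothelial markers Kdr alone had a peak and was lost (62.0 and 61.4 in EV). Of 5 fibroblast markers 2 had a peak and 0 were lost. The part of the cell type markers in the differences at the 8 genes was not tested.

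GSK343 was compared with the vehicle in fusion cells at 12390 peaks per list. Of 18 member regions 4 were gained (22.2%, against 10.7% of all 20590 regions) and 2 were lost (11.1%, against 7.93%), 2 were in all 4 lists and 10 were mixed. The gained regions were the Msx1 start, the inner Zeb2 start, the Zeb2 region at 67.6 kb and the region 33.9 kb before Snai1, whose values stood at 81.2 and 93.0 in ZR_GSK343 and 30.9 in ZR_DMSO replicate 2 alone. The lost ones were the Zeb2 region at 147.8 kb, at 31.9 and 78.7 in ZR_DMSO, and the Snai1 region at 14.4 kb, at 54.0 and 51.6. ZR_GSK343 replicate 2 listed both of these at full length, at 69.7 and 74.7. The ZR_GSK343 replicates shared 12 of the 47 member regions that either held, the smallest share of the 7 groups. With a peak required to cover 50% of the region the counts were 0 and 0. They were 7 gained and 5 lost without ZR_GSK343 replicate 2. Leaving out a library loosens the rule for a call, so in every comparison such counts can rise or stay and cannot fall.

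At the gene ends 1 of 4 members with a peak gained it, Msx1, and 0 lost it, against 20.3% gained and 0.414% lost over 9656 genes. The gained count is near the background. With the lists at full length the gained members were Twist2 and Zeb2, and not Msx1. Peaks near the 8 genes made up 0.0807% and 0.0969% of the ZR_GSK343 lists and 0.0888% and 0.0565% of the ZR_DMSO lists, and the groups overlapped (difference 0.0161 ± 0.0255 percentage points, SD, n = 2 each; exact permutation test, two-sided, p = 0.667). That difference was 0.00253 with the lists at full length, 0.0 with windows of 20 kb or without ZR_DMSO replicate 2, 0.00807 without ZR_GSK343 replicate 2, 0.0242 without its replicate 1 and 0.0323 without ZR_DMSO replicate 1. The 3 regions of all lists averaged 55.3 and 90.1 in ZR_GSK343 and 48.1 and 50.6 in ZR_DMSO (difference 23.3; exact permutation test, two-sided, p = 0.33). The difference was 11.1 (exact permutation p = 1.0) without the region at the ends of Spata2 and Rnf114, 5.93 without ZR_GSK343 replicate 2 and 40.8 without its replicate 1. These percentiles were taken over full lists, of 19239 and 57210 peaks against 12390 and 20881. By rank (1 is the strongest peak) the Zeb2 region stood nearer the top in ZR_DMSO, at 4290 and 4693 against 8119 and 9577. The Snai1 region stood nearer the top in ZR_GSK343, at 9380 and 3134 against 10704 and 14971, and the Zeb1 ranks overlapped. Peak width moved with the group: member peaks in the equal-length lists had a median width of 511 and 721 bp in ZR_GSK343 and 173 and 271 bp in ZR_DMSO, and all peaks 465 and 842.5 bp in ZR_GSK343 and 226 and 254 bp in ZR_DMSO. The part of width in these calls was not tested.

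Of the related lists under GSK343, each of 5 had 1 gained gene and 0 lost. Over all 9656 genes with a peak, 20.3% gained and 0.414% lost one. Among genes with a peak the gained ones were 1 of 4 related factors, 1 of 3 ligands and 1 of 7 receptors. They were also 1 of 8 mediators and inhibitors and 1 of 8 mesenchymal genes. With 1 gene per list, none of these counts is read as a result about its pathway. Tcf12 was gained (51.2 and 85.3 in ZR_GSK343), as were the ligand Tgfb3 (62.6 and 90.6), the BMP receptor Bmpr1b (81.2 and 88.2), the inhibitory Smad6 (57.3 and 90.1) and the neural and mesenchymal cadherin Cdh2 (44.3 and 87.6). Bmpr1b and Smad6 had a peak in 1 deposited ZR_DMSO list. No epithelial, neural crest, neural stem, microglial, fibroblast or endothelial gene of the lists was gained or lost.

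Citraconate was compared with the same 2 ZR_DMSO libraries, so the comparisons share their controls. Of 16 member regions 5 were gained (31.2%, against 12.5% of all 18840 regions) and 1 was lost (6.25%, against 6.62%), while 5 were in all 4 lists and 5 were mixed. The gained regions were the Msx1 start, the inner Zeb2 start, the Zeb2 regions at 67.6 and 164.1 kb and the Snai1 region at 31.4 kb. The Zeb2 region at 164.1 kb stood at 74.1 and 73.8 in ZR_dmCitra and was in neither deposited ZR_DMSO list. The lost region was that 14.4 kb past the Snai1 start. Both ZR_dmCitra lists held a peak there at full length, at 70.0 each and outside the strongest 12390, so the loss concerned rank and not presence. With the lists at full length 11 regions were gained and 0 lost. The gained count was 2 with −log10 q of at least 5, 3 with windows of 20 kb and 3 with ZR as control, and the lost count was 2 without ZR_dmCitra replicate 1 or without ZR_DMSO replicate 2.

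The replicates of ZR_dmCitra shared 26 of 34 member regions. At the gene ends 1 of 2 members with a peak gained it, Msx1, and 0 lost it, against 12% gained and 1.47% lost over 7869 genes. With the lists at full length the gained members were Twist2 and Zeb2, and not Msx1. Peaks near the 8 genes made up 0.0969% of each ZR_dmCitra list and 0.0888% and 0.0565% of the ZR_DMSO lists (difference 0.0242 ± 0.0228 percentage points, SD, n = 2 each; exact permutation test, two-sided, p = 0.33). The direction turned with the lists at full length, to -0.0082. The difference was 0.00341 with ZR as control, 0.00807 with windows of 20 kb or without ZR_DMSO replicate 2, and 0.0404 without ZR_DMSO replicate 1. The 3 regions of all lists averaged 80.4 ± 1.86 in ZR_dmCitra and 49.4 ± 1.78 in ZR_DMSO (percentile, SD, n = 2 each; exact permutation test, two-sided, p = 0.33). These percentiles were taken over full lists, of 45751 and 44033 peaks against 12390 and 20881. By rank (1 is the strongest peak) the Zeb2 region stood nearer the top in ZR_DMSO, at 4290 and 4693 against 5558 and 5213. The ranks of the groups overlapped at the Zeb1 and Snai1 regions. Width moved with the group here too, with medians of 740 and 799.5 bp for member peaks in ZR_dmCitra and 173 and 271 bp in ZR_DMSO. Over all peaks of the equal-length lists the medians were 979 and 914 bp in ZR_dmCitra and 226 and 254 bp in ZR_DMSO. The part of width in the citraconate calls was not tested. The ZR libraries, which carry the fusion and a PBS label and held 44843 and 44560 peaks, stood close to ZR_dmCitra. With ZR in place of ZR_DMSO as control, the difference in mean percentile was -0.27. The same change of control gave -7.96 for ZR_GSK343.

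In the related lists Bmpr1b (90.0 and 83.6 in ZR_dmCitra) and Cdh2 (83.9 and 83.6) gained a gene-end peak. Each was 1 of 7 genes of its list with a peak, against 12% gained over 7869 genes. Tgfbr3, the type III TGF-beta receptor and 1 of the same 7 receptors, lost its gene-end peak (19.2 and 42.2 in ZR_DMSO). Over all genes 1.47% lost one. Both deposited ZR_dmCitra lists held a Tgfbr3 peak. No ligand, mediator, related factor, epithelial or neural crest gene and none of the cell type markers was gained or lost.

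In the 50K libraries few regions near the 8 genes were gained or lost at equal list length. At 29432 peaks per list, 16 of 26 member regions were in all 4 lists, 1 was gained (3.85%, against 8.94% of all 44033 regions), 1 was lost (3.85%, against 17.3%) and 8 were mixed. The gained region was the Zeb1 end, which both deposited DMSO_50K lists also held, outside the strongest 29432. The lost region was the inner Zeb1 region, at 79.8 and 80.1 in DMSO_50K and in neither deposited Citraconate_50K list. At the gene ends Zeb1 was gained, 1 of 6 members with a peak, and 0 were lost, against 7.37% and 1.44% of 11370 genes. The share near the 8 genes was 0.0815% and 0.0917% in Citraconate_50K and 0.0646% and 0.0612% in DMSO_50K (difference 0.0238 ± 0.0076 percentage points, SD, n = 2 each; exact permutation test, two-sided, p = 0.33), and the difference was 0.0102 with windows of 100 kb and 0.0153 with windows of 20 kb. The 3 regions of all lists averaged 71.6 ± 5.73 in Citraconate_50K and 83.3 ± 2.39 in DMSO_50K (percentile, SD, n = 2 each; exact permutation test, two-sided, p = 0.33). The difference of -11.7 was -21.4 without the region at the ends of Spata2 and Rnf114 and -7.63 without Citraconate_50K replicate 2. These percentiles were taken over full lists, of 31702 and 29432 peaks against 52670 and 60346. By rank (1 is the strongest peak) the 3 regions went different ways. The Snai1 region ranked 5279 and 4404 in Citraconate_50K, against 11861 and 14993 in DMSO_50K. The Zeb2 region ranked 12908 and 18271, against 8314 and 11342. At the Zeb1 region the ranks overlapped, at 5411 and 5167 against 3943 and 6900. With the lists at full length 0 regions were gained and 5 lost, and with a peak over 50% of the region 0 were gained and 6 lost. No share over all regions is given for these settings. The gained count was 4 without Citraconate_50K replicate 1, 3 without its replicate 2 and 2 without either DMSO_50K library, and the lost count was 2 without DMSO_50K replicate 2.

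Among the related genes of the 50K libraries, Tcf12 (57.4 and 41.0 in Citraconate_50K), the ligand Tgfb1 (31.0 and 12.5) and Sox8 (53.5 and 54.5) gained a gene-end peak. They were 1 of 6 related factors, 1 of 3 ligands and 1 of 5 neural crest factors with a peak. Over all 11370 genes 7.37% gained one. Both deposited DMSO_50K lists held a peak for Tcf12 and Sox8, and 1 held it for Tgfb1. Dcn, which encodes the matrix proteoglycan decorin and was listed as a fibroblast marker, lost its peak (91.9 and 92.2 in DMSO_50K, in neither Citraconate_50K list). It was 1 of 2 fibroblast markers with a peak, against 1.44% lost over all genes. Its part in the differences at the 8 genes was not tested.

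The pattern of each member over the 14 lists was also set against 11667 genes by the Pearson correlation of gene-end percentiles, with 0 where a list had no peak. The genes most like Twist2 were Furin (r = 0.97) and Lrrc63 (0.95), both with a gene-end peak in 10 lists. Pdlim1 (0.90) and Aacs (0.89) were most like Snai1, Mpzl1 (0.98) and Malt1 (0.97) most like Snai2, and Atp2b4 (0.93) and Thoc5 (0.90) most like Zeb1. Fbxl7 (0.91) and Gm51582 (0.90) were most like Zeb2, and Fbxo25 and Rps3a1 (0.99 each) most like Msx1. Msx1 and its 2 most similar genes each had a gene-end peak in 13 lists. The correlations rest on 14 lists of different lengths, which all genes share, and are given as a description.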

How the data were processed

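Each ATAC-seq library came from 50000 cells, with 50 nt paired-end sequencing, per the labels' protocols. BWA, SAMtools, Picard and mm10 are named in the submitters' processing notes, and MACS2 called the peaks library by library, as the deposited peak names show. The deposited lists give a score, a fold enrichment (ratio) and −log10 p- and q-values for each peak, all the authors' own values. They hold no counts, so depth per library and counting errors are unknown.

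Python 3.11.15 with numpy 2.4.6 and pandas 2.3.3 was used. Peaks on chromosomes 1 to 19, X and Y were ranked by −log10 q within each list, with tied peaks given their mean percentile. For the calls, lists were reduced to the shortest of the 4 compared, ties at that limit being taken in a seeded random order. A library held a region if any of its peaks shared 1 bp or more with it. Gene positions and promoters came from RefSeq tables of GRCm38.p6. Library values were tested with exact permutations, two-sided, and calls were set beside the same calls over all regions or genes, with no test. The calling was tested on simulated lists.

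The 8 genes and the 11 gene lists were chosen with earlier results of these data known. Named were all 8 members, their gene-end regions, their most widely listed region and up to 3 gained and 3 lost regions per comparison, up to 3 gained and 3 lost genes per list by the poorer rank, and for each member the 2 genes of most similar pattern. Alternatives covered list length, a −log10 q floor of 5, fold in place of q for the ranking, windows of 20 and 100 kb, gene-end windows of 500 bp and 2 kb, 50% overlap, regions at the ends of other genes, ZR as control, blocking on the replicate number and omitting each library in turn. Added after the data were seen were regions joined over the 4 lists of a comparison, and tied peaks all kept or all left out.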

Additional observations from a re-analysis of the deposited data

How the results depend on the processing

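In ZR against EV the counts of 10 regions gained and 3 lost stayed within 1.5 times except with windows of 100 kb (18 and 9), and with a gene-end window of 2 kb 1 member lost its gene-end peak. For ZR_GSK343 against ZR_DMSO, deposited lists gave 0 lost and 2 members with a gene-end peak gained, a 50% overlap gave 0 gained and 0 lost, and ZR as control gave 2 gained and 0 lost, with a mean percentile difference of -7.96. For ZR_dmCitra against ZR_DMSO, deposited lists gave 11 gained, 0 lost, 2 members with a gene-end peak gained and a share difference of -0.0082 percentage points. There −log10 q of at least 5 gave 2 gained and 0 lost, a 50% overlap 0 lost, windows of 20 kb 3 gained, and ZR as control 3 gained, 2 lost and a mean percentile difference of -0.27. For Citraconate_50K against DMSO_50K, deposited lists gave 0 gained, 5 lost and 0 members with a gene-end peak gained, a 50% overlap gave 0 gained and 6 lost, windows of 100 kb 4 lost, and regions joined over the 4 lists 0 gained. The cause of these changes was not tested, except that a wider window holds more regions and a longer list more peaks. Shares over all regions or genes are given for the main setting only, so the alternative counts have no background beside them.

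Leaving out 1 library at a time gave 11 to 12 gained and 3 to 4 lost regions in ZR against EV, 4 to 7 and 2 to 5 for ZR_GSK343, 5 to 6 and 1 to 2 for ZR_dmCitra, and 2 to 4 and 1 to 2 for Citraconate_50K. Without ZR_GSK343 replicate 2 the counts were 7 gained and 5 lost. Each omission loosened the rule for a call, so these counts could rise or stay and could not fall. They are thus no measure of stability. The share difference ranged from 0.02 to 0.0257 percentage points in ZR against EV, 0.0 to 0.0323 for ZR_GSK343, 0.00807 to 0.0404 for ZR_dmCitra and 0.0187 to 0.0289 for Citraconate_50K. The percentile difference ranged from 19.7 to 21.7, 5.93 to 40.8, 29.7 to 32.3 and -15.7 to -7.63 in the same order. It was taken over full lists, whose lengths differ between the groups. The replicate numbers are not stated to pair libraries. With the numbers as a replicate block the differences were the same and the exact permutation p was 0.5 or 1.0, 0.5 being the smallest that 2 pairs allow. Over all results, 34 alternative counts moved by over 1.5 times or to or from 0, 3 differences reversed, and 179 values did neither. Among the 179 were the rankings by fold, which repeated the main value wherever they were run. The replicate blocks, which cannot change a difference, were among them too. So were many counts with a library left out, which cannot fall. The differences among the 179 kept their direction or were 0.0, and several were much smaller, as given beside the results. The lists carry no counts, so precision rests on 2 libraries a group.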
